A study of Mus musculus with 4 samples.

Results

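The genes described here encode small calcium-binding proteins and their partners in cerebellar neurons. They are calbindin (Calb1), calretinin (Calb2), parvalbumin (Pvalb), the Purkinje cell proteins Pcp2 and Pcp4, and the calmodulins Calm2 and Calm3. They were chosen by gene symbol, and all 7 were found among the 24015 genes of the count table. Messenger RNA was sequenced from the cerebellum of heterozygous Arid1b knockout mice and of wild type littermates, all of the C57BL/6N substrain and 140 to 150 days old. Each genotype was measured in 2 libraries, from 1 male and 1 female, with total counts of 15950899 to 20616219. Arid1b encodes a subunit of a chromatin-remodelling complex, and the study asked which transcripts change when 1 copy of it is lost. Arid1b itself stood at 52.9 and 55.8 CPM in heterozygotes (male, female), against 69.9 and 71.0 CPM in wild types (male, female), a log2 fold change of -0.37 ± 0.11 (SE; edgeR adjusted p = 0.243). CPM gives a gene's counts as a share of all counts in its library. Both heterozygotes lay below both wild types for Arid1b, though it did not pass the test, and the sources used here do not say which part of it is deleted. No label ties a library to an individual animal, and the p-values given here speak only of how these libraries vary.

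Calcium that enters a neuron is bound within milliseconds by buffer proteins, which shape how high and how long the signal stands. Calbindin, calretinin and parvalbumin are such buffers, built from EF-hand loops that hold the ion. Calmodulin is an EF-hand sensor that, once loaded with calcium, switches on kinases, phosphatases and channels. In the cerebellum calbindin marks Purkinje cells, parvalbumin marks Purkinje cells and molecular layer interneurons, and calretinin is found in granule cells and unipolar brush cells. Pcp2 is a modulator of G protein signalling made in Purkinje cells, and Pcp4 is a small IQ-motif protein that speeds the exchange of calcium on calmodulin.

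In mammals Calm2 and Calm3 encode the same protein from different messenger RNAs, which bears on whether a read can be given to 1 of them. The first 150 of the 447 coding bases of Calm3 (chromosome 7, GENCODE M21 on GRCm38) are printed with capitals where Calm2 has another base.
Calm3: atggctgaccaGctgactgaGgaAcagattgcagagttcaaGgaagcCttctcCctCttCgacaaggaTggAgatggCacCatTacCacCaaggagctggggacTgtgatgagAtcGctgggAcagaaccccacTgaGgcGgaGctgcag
In this stretch 23 bases are in capitals, all 23 of them at the last position of a codon. Over the 447 coding bases 78 differed between Calm3 and Calm2, 74 of them at the last position of a codon, so identity was 82.6%, and the longest stretch common to both was 17 bases. Of the 100-base windows of the principal transcript, the length of a read, 11 of 1106 for Calm2 and 3 of 2191 for Calm3 also occurred in another annotated gene, each time Gm7308 or Gm5881. For Calb1, Calb2, Pvalb and Pcp2 the count of such windows was 0. Pcp4 shared 146 of its 542 windows with a transcript of Igsf5, a neighbour on the same strand, which stood at 0.542 and 0.313 CPM in heterozygotes (male, female), against 0.608 and 0.728 CPM in wild types (male, female). Pcp2 overlaps Pet100 on the opposite strand, and Pet100 stood at 29.7 and 27.1 CPM in heterozygotes (male, female), against 32.0 and 38.7 CPM in wild types (male, female). The kit marks strand, but the sources used here do not say whether the counting used it.

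Promoters of the buffer and Purkinje cell genes are printed for Pvalb, Pcp2 and Pcp4, because these members were each highest in the female wild type and higher in the male heterozygote than in the male wild type. Each sequence is the 250 bases before the most upstream RefSeq start on GRCm38.p6, with capitals for AGGTCA on either strand. That hexamer is the core half-site of RORA, a nuclear receptor of Purkinje cells.
Pvalb promoter, chr15:78206401-78206650, minus strand: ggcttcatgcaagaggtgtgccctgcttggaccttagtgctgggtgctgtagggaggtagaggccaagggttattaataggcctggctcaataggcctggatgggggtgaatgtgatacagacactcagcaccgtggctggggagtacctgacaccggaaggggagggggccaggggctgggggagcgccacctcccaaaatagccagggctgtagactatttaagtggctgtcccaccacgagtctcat
Pcp2 promoter, chr8:3625548-3625797, minus strand: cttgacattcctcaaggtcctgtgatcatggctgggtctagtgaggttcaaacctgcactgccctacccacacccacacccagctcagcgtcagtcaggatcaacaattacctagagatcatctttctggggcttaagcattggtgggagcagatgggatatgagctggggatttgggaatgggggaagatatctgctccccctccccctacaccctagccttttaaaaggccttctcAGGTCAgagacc
Pcp4 promoter, chr16:96467356-96467605, plus strand: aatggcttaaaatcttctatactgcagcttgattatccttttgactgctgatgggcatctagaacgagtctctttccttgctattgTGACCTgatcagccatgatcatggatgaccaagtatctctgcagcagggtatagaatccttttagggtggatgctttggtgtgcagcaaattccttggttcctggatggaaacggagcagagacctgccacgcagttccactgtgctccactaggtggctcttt
AGGTCA occurred once in Pcp2, its first base 12 bases before the start, and once in Pcp4 as TGACCT, 164 bases before the start, and in neither Pvalb nor Calm3. Over all 32851 promoter entries, 14% held it within the same 250 bases. The RefSeq table matched 4 of the 7 members, Pvalb, Pcp2, Pcp4 and Calm3, and Calb1, Calb2 and Calm2 are named only. These matches describe letters and not binding.

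The members are among the abundant messages of the cerebellum. On a scale that divides CPM by the length in kilobases of the longest annotated transcript (RPKM), Calm2 was highest at 1264 ± 87.7 RPKM (SD over the 4 libraries), the fifth of 22709 genes with a length. Pcp4 followed at 949.8 ± 133 RPKM and Pvalb at 769 ± 143 RPKM. The libraries of Calm2 did not overlap those of Pcp4, while those of Pcp4 and Pvalb did overlap. Calm3 stood at 585 ± 41.8 RPKM. Calb2 stood at 331 ± 34.4 RPKM and Calb1 at 154 ± 19.9 RPKM, and no library of these genes overlapped one of the other. The place of Pcp2 depends on the transcript taken: it averaged 97.0 RPKM with its longest transcript of 1606 bases, and 331 RPKM with its principal transcript of 470 bases. Together the members took 0.558% and 0.509% of counts in heterozygotes (male, female), against 0.522% and 0.614% in wild types (male, female).

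Between the genotypes, no member changed past the threshold. The fit was edgeR's quasi-likelihood test with sex and genotype as terms, and adjusted p-values ran from 0.397 to 0.871. Over all genes 3 of 15117 passed an adjusted p of 0.05, or 0.0198%. All 7 members passed the low-count filter. DESeq2, the likelihood ratio test and limma-voom also called 0 of the 7, which makes 4 tests in all. Relative to wild types 6 members were lower and 1 was higher, and the median over the members was -0.14 on the log2 scale, beside 0.0063 over all tested genes. At an unadjusted p under 0.05 there was 1 lower member, Calb1, where 6.46% of all genes met that rule, and 0 higher, where 5.22% did. The heterozygote and wild type libraries did not overlap for 4 of the 7, 3 lower and 1 higher, while 44.7% of all genes had groups that did not overlap. In bulk tissue a change in the number of cells of a type and a change in RNA per cell cannot be told apart.

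**Figure D1:**
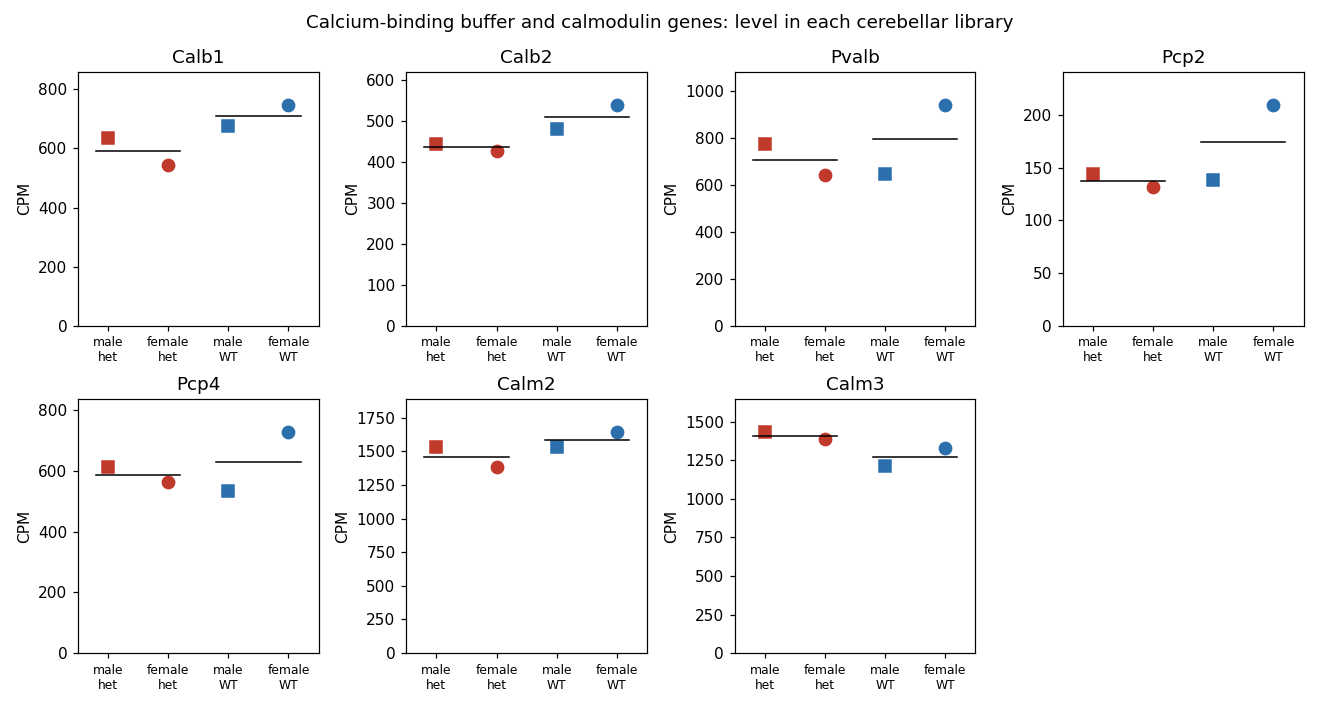
Level of each gene in CPM (y axis, from 0) in each library (x axis), with heterozygotes (het) in red and wild types (WT) in blue, squares for males, circles for females and a black line for the mean of 2 libraries. Calb1, Calb2 and Calm2 were lower in both heterozygotes and Calm3 higher, and Pvalb, Pcp2 and Pcp4 stood out in the female wild type.

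Calbindin was lower in both heterozygotes. Calb1 stood at 637 CPM (male) and 545 CPM (female) in heterozygotes, against 675 CPM (male) and 747 CPM (female) in wild types. The groups did not overlap, but the male libraries lay close together and most of the distance was between the females. Its mean was 591 ± 64.9 CPM in heterozygotes and 711 ± 50.7 CPM in wild types (SD, n = 2 each), and the fitted log2 fold change was -0.27 ± 0.11 (SE). Its 95% interval ran from -0.52 to -0.02, a level of 0.699 to 0.989 times the wild type, and the adjusted p was 0.397 in edgeR. Within each sex, Calb1 had a log2 ratio of -0.45 between females and -0.08 between males, each from 1 library against 1.

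Calretinin followed the same order of groups with a smaller distance. Calb2 stood at 446 CPM (male) and 428 CPM (female) in heterozygotes, against 480.1 CPM (male) and 540.0 CPM (female) in wild types. Both heterozygotes lay below both wild types. The means were 437 ± 12.1 CPM in heterozygotes and 510.1 ± 42.3 CPM in wild types (SD, n = 2 each), with a log2 fold change of -0.22 ± 0.11 (SE; 95% interval -0.45 to 0.01; edgeR adjusted p = 0.462). The log2 ratio of Calb2 was -0.33 between females and -0.11 between males.

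Parvalbumin was highest in the female wild type. Pvalb stood at 773 CPM (male) and 644 CPM (female) in heterozygotes, against 647 CPM (male) and 941 CPM (female) in wild types. The groups overlapped, with the male heterozygote above the male wild type and the female heterozygote the lowest of all. The means were 708 ± 91.1 CPM in heterozygotes and 794 ± 208 CPM in wild types (SD, n = 2 each), with a log2 fold change of -0.14 ± 0.20 (SE; 95% interval -0.65 to 0.36; edgeR adjusted p = 0.846). Its log2 ratio was -0.54 between females and 0.26 between males. Pvalb is also the main calcium buffer of fast skeletal muscle fibres. The summed level of 19 skeletal muscle markers was 305 and 62.4 CPM in heterozygotes (male, female), against 66.3 and 75.8 CPM in wild types (male, female). Of the 16 of these markers that were tested, 13 were higher in the heterozygote among males and lower among females. Myh4, a myosin of fast fibres, had 827 and 0 counts in heterozygotes (male, female), against 0 and 29 counts in wild types (male, female), and was named after its values were seen. The part of muscle RNA in the Pvalb level of the male heterozygote was not tested.

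The Purkinje cell proteins were likewise highest in the female wild type. Pcp2 stood at 144 CPM (male) and 132 CPM (female) in heterozygotes, against 138 CPM (male) and 209 CPM (female) in wild types. The other libraries lay close together, with the male heterozygote just above the male wild type. The means of Pcp2 were 138 ± 8.35 CPM in heterozygotes and 174 ± 50.2 CPM in wild types (SD, n = 2 each), with a log2 fold change of -0.31 ± 0.17 (SE; 95% interval -0.72 to 0.11; edgeR adjusted p = 0.561). Pcp4 stood at 612 CPM (male) and 562 CPM (female) in heterozygotes, against 533 CPM (male) and 727 CPM (female) in wild types. Both heterozygotes lay between the wild types. Pcp4 had a log2 fold change of -0.08 ± 0.14 (SE; 95% interval -0.39 to 0.23; edgeR adjusted p = 0.871). Among females the log2 ratios were -0.66 for Pcp2 and -0.37 for Pcp4, and among males they were 0.054 for Pcp2 and 0.20 for Pcp4.

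**Figure D2:**
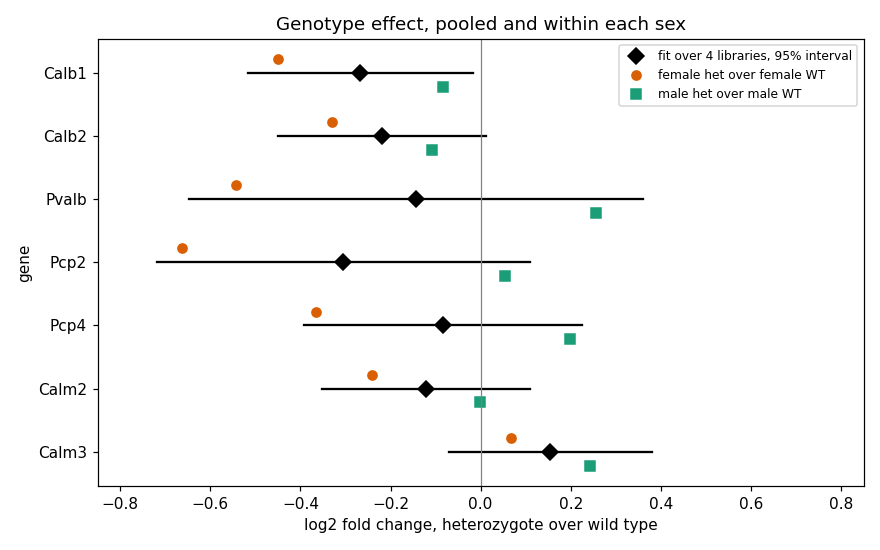
Log2 fold change of heterozygote over wild type (x axis) for each gene (y axis), with the fit over all 4 libraries as a diamond with its 95% interval and the ratio within females (circle) and within males (square), each from 1 library against 1. The female ratio lay below the male ratio for every gene plotted, with -0.66 and 0.054 for Pcp2 and 0.07 and 0.24 for Calm3. Among all 15117 tested genes it lay below for 7208.

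Calm2 and Calm3 had like levels in CPM and opposite signs, neither past the test. Calm2 stood at 1531 CPM (male) and 1386 CPM (female) in heterozygotes, against 1533 CPM (male) and 1643 CPM (female) in wild types. For Calm2 the male libraries were nearly the same and the groups did not overlap. The log2 fold change of Calm2 was -0.12 ± 0.11 (SE; 95% interval -0.35 to 0.11; edgeR adjusted p = 0.714). Calm3, the only member higher in the heterozygotes, stood at 1432 CPM (male) and 1388 CPM (female) in heterozygotes, against 1212 CPM (male) and 1328 CPM (female) in wild types. Both heterozygotes lay above both wild types, as for 22.1% of all genes. The log2 fold change of Calm3 was 0.15 ± 0.10 (SE; 95% interval -0.07 to 0.38; edgeR adjusted p = 0.610).

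Set beside each other, Calm2 and Calm3 had summed levels that overlapped between the genotypes, while the share of Calm3 in that sum was higher in both heterozygotes. Together they stood at 2964 and 2773 CPM in heterozygotes (male, female), against 2744 and 2972 CPM in wild types (male, female). Calm3 made up 48.3% (Wilson 95% interval 47.9% to 48.7%) and 50.04% (49.6% to 50.5%) of these counts in heterozygotes (male, female), against 44.1% (43.7% to 44.6%) and 44.7% (44.3% to 45.1%) in wild types (male, female). The groups did not overlap, and the intervals cover counting error only. The mean share was 49.2% ± 1.204 in heterozygotes and 44.4% ± 0.393 in wild types (SD, n = 2 each), a difference of 4.76 percentage points. The separation of the groups follows from Calm2 being lower and Calm3 higher in both heterozygotes, so it is not a further result. A two-sided exact permutation test could then only give p = 0.333, the smallest that 2 libraries against 2 allow. This share was also chosen after the values were seen. Counted per kilobase of transcript, its mean over the 4 libraries was 31.7%, against 46.8% of counts, since the Calm3 transcript is the longer (2290 bases, against 1205 for Calm2).

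**Figure D3:**
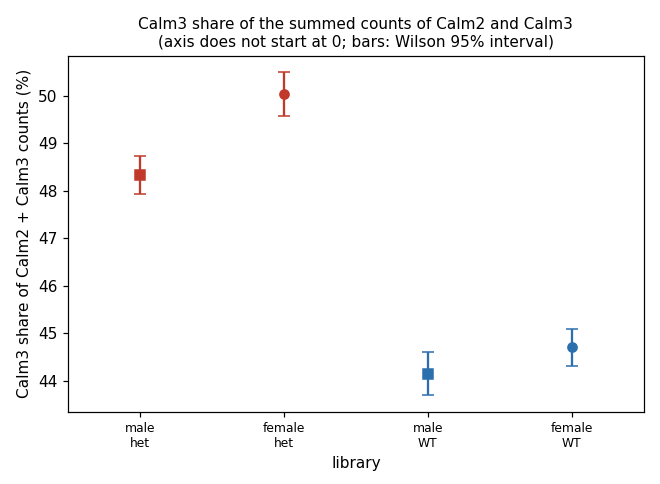
Share of Calm3 in the summed counts of Calm2 and Calm3 (y axis in percent, not from 0) in each library (x axis), with heterozygotes in red, wild types in blue, squares for males, circles for females and bars for the Wilson 95% interval. Both heterozygotes, at 48.3% and 50.04%, lay above both wild types, at 44.1% and 44.7%.

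The sexes were compared in the same fit, and 0 of the 7 members passed, with adjusted p from 0.994 to 0.998 in edgeR, where 0.0595% of all genes passed. At an unadjusted p under 0.05 the count was also 0 of 7, beside 3.82% of all genes, and 0 members passed with DESeq2, the likelihood ratio test or limma-voom. The order of the sexes differed between the genotypes. In the heterozygotes the female lay below the male for 7 of 7 members, by log2 ratios of -0.26 (Pvalb) to -0.045 (Calm3). In the wild types the female lay above the male for 7 of 7, by 0.10 (Calm2) to 0.59 (Pcp2). Among all tested genes 24% had this arrangement. The female wild type held the highest value of 6 of the 7 members, Calm3 being the exception, and of 29.7% of all genes. With 1 library for each combination of sex and genotype, no residual is left to test whether the effects differ. The genotype ratio had opposite signs in females and males for 3 of the 7, Pvalb, Pcp2 and Pcp4, beside 41.5% of all genes.

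The members were also compared with each other library by library. The likeness used was the root mean square difference between log2 CPM profiles centred on their own mean, over the 4 libraries. The closest pairs of members were Calb2 with Calm2 at 0.062, Calb1 with Calb2 at 0.065 and Pvalb with Pcp4 at 0.067. Calb1 with Calm2 stood at 0.080, Pvalb with Pcp2 at 0.096 and Pcp2 with Pcp4 at 0.122, so that Pcp4 was about as far from Pcp2 as from Calb2 (0.121). The farthest pair was Pcp2 with Calm3 at 0.283. Among 8525 other genes with a mean of at least 20 CPM, the profile nearest to Pcp2 was that of Hes3, a transcriptional repressor, at 0.028, with 40.6 and 36.9 CPM in heterozygotes (male, female) against 39.4 and 61.9 CPM in wild types (male, female). Next to Pcp2 came Timp4 at 0.040 and Srsf9 at 0.047. Nearest to Pvalb was Metrn, a secreted glial and neuronal factor, at 0.024, nearest to Pcp4 was Gm13889 at 0.011, and nearest to Calb1 was Atp6v0e, a proton pump subunit, at 0.018. Hnrnpa2b1, an RNA-binding protein, was nearest to Calb2 at 0.008, St7 to Calm2 at 0.007 and Vps28, a sorting protein of endosomes, to Calm3 at 0.003. With 4 libraries many genes share a profile, and these are descriptions with no test.

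Markers of Purkinje cells and granule cells were mostly lower in the heterozygotes. Those of molecular layer interneurons, and the joint list of unipolar brush and Golgi cells, were about as often higher as lower. Of 25 Purkinje cell markers other than the members, 21 were lower and 4 higher than in wild types, and their median on the log2 scale was -0.24, with -0.39 between females and -0.11 between males. None passed edgeR's quasi-likelihood test, 11 were lower and 0 higher at an unadjusted p under 0.05 (6.46% and 5.22% of all genes), the likelihood ratio test called 3 lower (Atp2a3, Pde5a and Rora), and DESeq2 and limma-voom called 0. Their summed level was 7517 and 7131 CPM in heterozygotes (male, female), against 7879.7 and 9233 CPM in wild types (male, female), and 19 of the 25 were highest in the female wild type, as 29.7% of all genes were. Rora stood at 148 and 154 CPM in heterozygotes (male, female), against 190.4 and 218 CPM in wild types (male, female) (log2 fold change -0.43 ± 0.10, SE; edgeR adjusted p = 0.171). Dner, a Notch ligand, had -0.34 ± 0.10 and Atp2a3, a calcium pump of the endoplasmic reticulum, -0.43 ± 0.11, while Pde5a, which breaks down cyclic GMP, had -0.55 ± 0.12 (all SE). Aldoc, 1 of the 25, held 2445 and 2265 CPM of the sum in heterozygotes (male, female), against 2193 and 2706 CPM in wild types (male, female). Its log2 fold change was -0.05 ± 0.12 (SE). The scale that follows divides by the sum with Aldoc in it, and the order of the groups without Aldoc was not computed. Counted per 100 counts of the 25 markers, Calb1 was at 8.47 and 7.65 in heterozygotes (male, female), against 8.57 and 8.09 in wild types (male, female). On that scale the groups of Calb1 overlapped, and so did those of Pvalb, at 10.3 and 9.03 in heterozygotes (male, female), against 8.21 and 10.2 in wild types (male, female). Calm3 was higher in both heterozygotes on it too, at 19.1 and 19.5 in heterozygotes (male, female), against 15.4 and 14.4 in wild types (male, female). Calm2, lower in CPM, turned to higher within each sex on this scale, though its groups overlapped. It stood at 20.4 and 19.4 in heterozygotes (male, female), against 19.5 and 17.8 in wild types (male, female). The summed markers were lower in both heterozygotes, so a gene with unchanged CPM rises on this scale. Calb2 was at 5.93 and 6.01 in heterozygotes (male, female), against 6.09 and 5.85 in wild types (male, female), so its groups overlapped too. The groups of Pcp2 also overlapped, at 1.91 and 1.85 in heterozygotes (male, female), against 1.76 and 2.27 in wild types (male, female). Pcp4 was at 8.15 and 7.89 in heterozygotes (male, female), against 6.77 and 7.87 in wild types (male, female). Both heterozygotes of Pcp4 thus lay above both wild types on this scale, though the female libraries were nearly level. The part of Purkinje cell content in the member levels was not tested.

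Granule cells are a source of calretinin, and 23 of 24 of their markers were lower than in wild types, at a median of -0.44 on the log2 scale. None passed edgeR's quasi-likelihood test or limma-voom. At an unadjusted p under 0.05, 19 were lower and 0 higher, beside 6.46% and 5.22% of all genes. DESeq2 called 8 lower and the likelihood ratio test 13 lower, where they called 34 and 166 of all 15117 genes. Their sum was 9746 and 10305 CPM in heterozygotes (male, female), against 12167 and 13218 CPM in wild types (male, female). Fat2, a granule cell cadherin, had a log2 fold change of -0.58 ± 0.10 and Camk4, a calmodulin-dependent kinase, had -0.59 ± 0.10 (SE, adjusted p = 0.13 in edgeR for both). The list of unipolar brush and Golgi cell markers had 5 of 12 higher, at a median of -0.045. At an unadjusted p under 0.05, 3 of its genes were higher and 3 lower, beside 5.22% and 6.46% of all genes. The list joins these cell types, so its median does not speak for either alone. In it 1 gene passed, upward: Slc6a5, the glycine transporter of Golgi cells and brainstem neurons (1.42 ± 0.18, SE; edgeR adjusted p = 0.0473), though without the male heterozygote 0 genes of the whole table passed. In the same list DESeq2 called Slc6a5 and Sst higher, the likelihood ratio test Lgi2, Slc6a5 and Sst, and limma-voom Slc6a5 alone. Molecular layer interneuron markers had 7 of 16 higher, a median of -0.015 and 0 past any of the 4 tests. At an unadjusted p under 0.05, 2 of them were higher and 2 lower (5.22% and 6.46% of all genes). Slc32a1, the vesicular GABA transporter, was at 0.30 ± 0.10 and Kit at -0.32 ± 0.11 (SE). Brainstem and midbrain markers summed to 564 and 527 CPM in heterozygotes (male, female), against 457 and 229.7 CPM in wild types (male, female). Of 25 tested 18 were higher, 1 of which, Th (tyrosine hydroxylase), passed edgeR's quasi-likelihood test. DESeq2 and limma-voom also called Th alone, and the likelihood ratio test called Dbh, Hoxa5 and Th (2 higher and 1 lower). Forebrain markers summed to 466 and 441 CPM in heterozygotes (male, female), against 421 and 454 CPM in wild types (male, female). Calb1, Calb2 and Pvalb are also made by neurons of those regions, and the part of such neurons in their levels was not tested. Markers of oligodendrocytes and myelin summed to 15745 and 14826 CPM in heterozygotes (male, female), against 13509 and 14255 CPM in wild types (male, female). Those of the choroid plexus summed to 2736 and 1582 CPM in heterozygotes (male, female), against 1499 and 1486 CPM in wild types (male, female).

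Other neuronal calcium sensors were found on both sides, and other calcium-binding proteins, most of them of the EF-hand family, were more often higher than lower. Of 15 tested neuronal calcium sensors 8 were higher and 7 lower, at a median of 0.019 on the log2 scale. None passed any of the 4 tests, and 2 were higher at an unadjusted p under 0.05, beside 5.22% of all genes. Both heterozygotes lay above both wild types for 5 of the 15 and below them for 4, where all genes had 22.1% above and 22.6% below. Ncald (neurocalcin) stood at 275 and 276 CPM in heterozygotes (male, female), against 236 and 185 CPM in wild types (male, female), a log2 fold change of 0.40 ± 0.11 (SE; edgeR adjusted p = 0.216). Hpca (hippocalcin) had 0.32 ± 0.11 and Vsnl1 (visinin-like protein) 0.19 ± 0.10 (SE). Of 28 tested S100, EF-hand and other calcium-binding proteins 20 were higher and 8 lower, at a median of 0.07. None passed any of the 4 tests, and Calr and Canx, which have no EF-hand, are counted among the higher. At an unadjusted p under 0.05, 4 were higher, beside 5.22% of all genes. Necab3, a neuronal EF-hand protein, was at 56.8 and 55.3 CPM in heterozygotes (male, female), against 39.3 and 43.0 CPM in wild types (male, female) (0.45 ± 0.12, SE; edgeR adjusted p = 0.209). Efhd2 had 0.25 ± 0.10 and Necab2 0.36 ± 0.14 (SE).

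Targets of calmodulin were found on both sides. Among 20 genes of calmodulin-binding IQ motif, MARCKS and related proteins 11 were higher and 9 lower, at a median of 0.05 on the log2 scale. None passed edgeR's quasi-likelihood test, DESeq2 or limma-voom, and the likelihood ratio test called Marcks lower. At an unadjusted p under 0.05, 3 were higher and 2 lower, beside 5.22% and 6.46% of all genes. Marcks, a membrane protein released by calmodulin, stood at 66.3 and 61.6 CPM in heterozygotes (male, female), against 96.1 and 82.4 CPM in wild types (male, female) (-0.48 ± 0.11, SE; edgeR adjusted p = 0.156). Gap43, a growth cone protein that binds calmodulin as Pcp4 does, was at 292 and 307 CPM in heterozygotes (male, female), against 263 and 229.5 CPM in wild types (male, female). Among 16 calmodulin-dependent enzymes other than kinases 9 were higher and 7 lower, at a median of 0.05, with 0 past any of the 4 tests. At an unadjusted p under 0.05, 4 of these enzymes were higher and 3 lower, beside 5.22% and 6.46% of all genes. Adcy1, a calmodulin-stimulated adenylyl cyclase, stood at 884 and 1052 CPM in heterozygotes (male, female), against 1278 and 1270.0 CPM in wild types (male, female) (-0.40 ± 0.11, SE; edgeR adjusted p = 0.207). The calmodulin-stimulated phosphodiesterases had opposite signs, with Pde1b at 0.48 ± 0.14 and Pde1c at -0.37 ± 0.12 (SE). Of the calmodulin-like genes, Caln1 had 0.14 ± 0.12 and Calml4 -0.13 ± 0.38 (SE).

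Where several members stood depended on which wild type library was kept. Leaving out either wild type moved every member away from the fit of all 4 libraries, in opposite directions, as it must where the wild types differ. These moves were largest for Pvalb, Pcp2 and Pcp4. Without the male wild type Calb1 was at -0.34, Calb2 at -0.30, Pvalb at -0.41, Pcp2 at -0.60 and Pcp4 at -0.31. That fit sets the female wild type alone against both heterozygotes and assumes that the lone library varies like the heterozygotes. The 4 fits with a library left out had no sex term, so genotype and sex are mixed in them. Without the female wild type, Pcp2 was at -0.0072, and Pvalb and Pcp4 turned to 0.13 and 0.14. Without the male heterozygote, whose muscle markers were high, Pvalb was at -0.30, and without the female heterozygote at -0.05. Calb1 was lower in each of these 4 fits, from -0.38 to -0.17, Calb2 from -0.30 to -0.14 and Calm2 from -0.19 to -0.06, and Calm3 was higher in each, from 0.09 to 0.22.

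**Figure D4:**
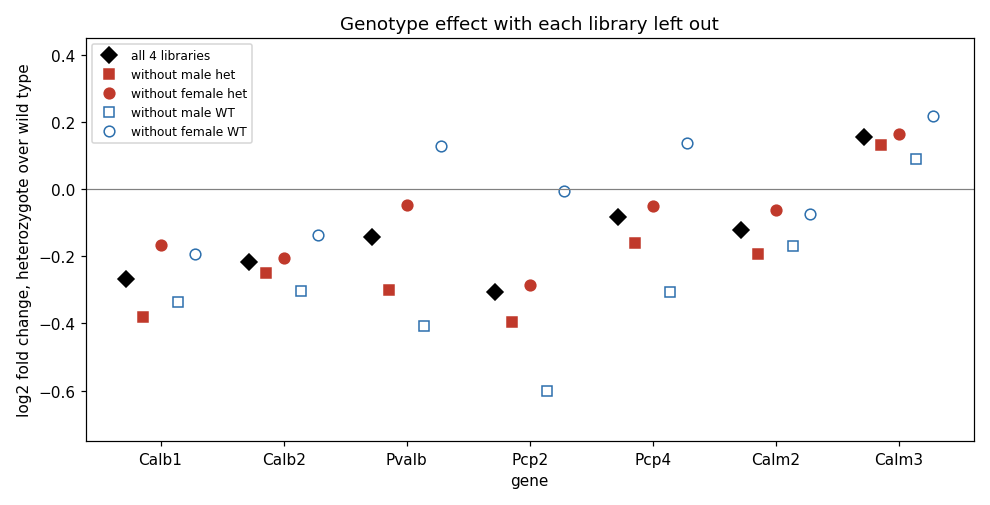
Log2 fold change of heterozygote over wild type (y axis) for each member (x axis) in the fit of all 4 libraries (black diamond) and with 1 library left out, red filled for a heterozygote and blue open for a wild type. Leaving out the female wild type moved Pvalb and Pcp4 above 0, to 0.13 and 0.14, and leaving out the male wild type gave the lowest values of Pvalb, Pcp2 and Pcp4, down to -0.60.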

How the data were processed

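Per the labels' protocols, messenger RNA libraries that keep the strand were prepared from dissected cerebellum and run together on 1 lane, with single-end reads of 100 bases. The authors deposited raw counts per gene symbol, with a column for each of the 4 libraries. The submitters' processing notes name STAR, featureCounts, FastQC, edgeR and mm9 and give neither settings nor versions.

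Genotype and sex came from the labels. The members, gene lists and tests were chosen with earlier results of these data known. Low counts were removed with filterByExpr (15117 of 24015 genes left, 99.9% of counts), libraries scaled by TMM, and sex and genotype fitted with edgeR 4.0.16 in R 4.3.3 (robust quasi-likelihood, 1 residual degree of freedom). P-values are two-sided, with Benjamini-Hochberg adjustment over all tested genes at 0.05. SE is the log2 fold change over the square root of F. Ratios within a sex used a prior count of 2. A count of 0 allows up to 0.146 to 0.188 CPM (3 counts). Beside the members, text names up to 4 genes per list of smallest p with a mean of at least 1 CPM, a selection of these being printed, and for each member the nearest of the 3 genes of like profile (log2 of CPM plus 0.5). RPKM and windows used GENCODE M21 on GRCm38, not the build of the counts. Scripts were tested on simulated data. Alternatives were DESeq2 1.42.0, the likelihood ratio test, limma-voom (limma 3.58.1), DESeq2's size factors, library totals, other filters and no sex term. Each library was also left out in turn, in fits without the sex term. One gene of the planned lists, and shares that need it, are not reported here.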

Additional observations from a re-analysis of the deposited data

Results flagged for a closer look

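The difference between the female and the male library ran opposite ways in the genotypes for all 7 members. This was not tested, because each combination of sex and genotype had 1 library. The log2 ratio of female over male in the heterozygotes and then in the wild types was -0.22 and 0.14 for Calb1, -0.055 and 0.17 for Calb2, and -0.26 and 0.54 for Pvalb. It was -0.12 and 0.59 for Pcp2, -0.12 and 0.44 for Pcp4, -0.14 and 0.10 for Calm2, and -0.045 and 0.13 for Calm3. The same arrangement held for 24% of all tested genes.

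The ratio of heterozygote over wild type accordingly had opposite signs in the sexes for 3 members, again not tested. On the log2 scale it was -0.54 in females and 0.26 in males for Pvalb, -0.66 in females and 0.054 in males for Pcp2, and -0.37 in females and 0.20 in males for Pcp4. A ratio above 0 in males and below 0 in females was seen for 21.2% of all genes.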

How the results depend on the processing

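Of the member effects of genotype, 77 of the values under an alternative kept their direction and stayed past or short of the threshold as before. The 2 that turned sign were Pvalb and Pcp4 without the female wild type. The remaining values, all without the male wild type, kept their direction. They are not read against the threshold, since that fit leaves 1 wild type library. The 49 values for sex kept their direction and their side of the threshold. With 1 library left out, the log2 fold change ran from -0.38 to -0.17 for Calb1, -0.30 to -0.14 for Calb2, -0.41 to 0.13 for Pvalb, -0.60 to -0.0072 for Pcp2, -0.31 to 0.14 for Pcp4, -0.19 to -0.06 for Calm2 and 0.09 to 0.22 for Calm3. Pvalb and Pcp4 were at 0.13 and 0.14 without the female wild type. The count of genes called between the genotypes, 3 in the reported fit, was 0 with at least 1 CPM in at least 2 libraries and 0 without the sex term, 7 with DESeq2's size factors, 34 with DESeq2, 166 with the likelihood ratio test, 13 with library totals and 553 with no low-count filter. With each library left out in turn its range was 0 to 2730. Between the sexes the count was 9, but 16 in the likelihood ratio test and 48 when no genes were filtered. The cause was not tested. The share of Calm3 in the counts of Calm2 and Calm3 averaged 46.8%, and 31.7% per kilobase of transcript, a scale chosen after seeing the data. The labels give no replicate numbers, and a replicate block by sex, which pairs the male and the female libraries, is the sex term of the reported fit: it called 3 genes between the genotypes, against 0 without it. With 1 residual degree of freedom, the 95% intervals of the members spanned 0.45 to 1.01 on the log2 scale, which limits what could be called.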
